A study of Mus musculus with 8 samples.

Results

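*Txnip*, 4 other alpha-arrestin genes (*Arrdc1*, *Arrdc2*, *Arrdc3* and *Arrdc4*) and the thioredoxin genes *Txn1* and *Txn2* were examined in 4T1 cells, a mouse triple-negative mammary carcinoma line. These 7 genes were chosen by name, with earlier results of these data known, out of 25676 genes listed in both processed tables, and each had 1 row per table. RNA was sequenced from 4 groups of 2 libraries. Wild-type cells received 0.5 μg/mL of sdAb#07.81, a single-domain antibody against NUPR1, for 24 h or 48 h, or the control antibody sdAb-Con for 48 h, and a Con group was not analysed here. Both antibody proteins were made in HEK293F cells and carried the same degron and a Tat peptide for entry into cells. The cultures were grown in low oxygen.

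Alpha-arrestins are adaptor proteins that link membrane transporters and receptors to NEDD4-family ubiquitin ligases. TXNIP and ARRDC4 lower glucose uptake, and TXNIP also binds reduced thioredoxin. Transcription of both genes is classically driven by MondoA (encoded by *Mlxip*) or ChREBP (encoded by *Mlxipl*), which pair with MLX and respond to glucose phosphates through a carbohydrate response element. Thioredoxins are small redox proteins that reduce disulfide bonds, TXN1 in the cytosol and nucleus and TXN2 in mitochondria.

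The level of a gene is the authors' mean normalized count, a mean of counts divided by size factors over the 4 libraries of a table. One table pools sdAb#07.81 at 24 h and 48 h, and its value is called the sdAb#07.81 mean. The other pools sdAb#07.81 and sdAb-Con at 48 h, and its value is called the 48 h mean. Neither table gives values per library, and the standard errors and p-values of the authors' own comparisons were set aside. Nothing was therefore tested here, and no difference below was compared with the spread between replicates. Means summed to 17900221 in the first table and 17867752 in the second. Because the tables were normalized separately, the 48 h mean was multiplied by 1.03, which sets the median ratio of 13629 genes with a mean of at least 10 in both tables to 1. Bulk RNA averages over the culture, so the share of cells that express a gene and its level per cell cannot be told apart. As markers of the 4T1 line, the epithelial genes *Krt8*, *Krt18*, *Cdh1* and *Epcam* had 48 h means, as deposited, of 10794, 12893, 15180 and 2858. The basal keratin gene *Krt14* had a lower 48 h mean of 292, and *Krt5* was listed in neither table. Among markers of other cells, *Ptprc*, *Cd3e*, *Lyz2* and *Pecam1* had 48 h means from 0.515 to 7.15, and *Cd68* and *Col1a1* stood at 684 and 174. The log2 ratio of the sdAb#07.81 mean to the scaled 48 h mean was between -0.12 and 0.01 for *Krt8*, *Krt18*, *Cdh1* and *Epcam*, 0.52 for *Krt14*, -0.77 for *Cd68* and -0.26 for *Col1a1*, and the part of these markers in the results was not tested.

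*Txnip* and *Arrdc4* were the members whose sdAb#07.81 mean stood farthest above the 48 h mean. Their promoters are shown here from RefSeq (build GRCm38.p6), 250 bases before to 50 after the start of transcription, 5′ to 3′ on the gene's strand. Capitals mark matches on either strand to CACGTG (an E-box), to CCAAT (the CCAAT box), and to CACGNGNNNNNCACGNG, a pair of E-box-like sequences 5 bases apart as in a carbohydrate response element. The *Txnip* window lies on chr3:96557707-96558006, plus strand, and the *Arrdc4* window on chr7:68749189-68749488, minus strand.
Txnip: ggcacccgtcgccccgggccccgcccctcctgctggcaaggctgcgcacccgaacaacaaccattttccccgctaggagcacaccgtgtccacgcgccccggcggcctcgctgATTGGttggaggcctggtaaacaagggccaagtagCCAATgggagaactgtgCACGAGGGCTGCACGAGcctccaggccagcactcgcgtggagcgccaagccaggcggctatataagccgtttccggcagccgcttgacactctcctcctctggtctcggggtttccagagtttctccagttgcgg
Arrdc4: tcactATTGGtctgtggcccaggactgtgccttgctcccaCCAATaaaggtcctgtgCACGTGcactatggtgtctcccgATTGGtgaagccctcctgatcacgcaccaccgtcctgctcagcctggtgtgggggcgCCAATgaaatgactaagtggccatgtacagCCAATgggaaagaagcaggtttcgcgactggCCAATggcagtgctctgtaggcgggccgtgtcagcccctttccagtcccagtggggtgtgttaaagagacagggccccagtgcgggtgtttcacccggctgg

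The paired element of *Txnip* began 85 bases upstream of the start. The same pattern was present in 16 of 32817 promoter windows of this length, 0.0488% of them, and in 1 of the 9 windows of the members (3 of these belong to *Arrdc3*). *Arrdc4* held a single CACGTG 193 bases upstream, a sequence found in 7.15% of all windows and in no other window of the members. CCAAT boxes were frequent, in 37.4% of all windows and in 6 of 9 windows of the members. *Txnip* held 2 of them and *Arrdc4* 6. TATAAA was also searched on both strands and was found in 13.6% of all windows. Among the members it was found in that of *Txn1* alone, 160 bases upstream. The search took these exact letters only, so tatataag in the *Txnip* window was not counted. These matches describe the letters of the windows and not bound sites.

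*Txnip* (ENSMUSG00000038393) is listed on chromosome 3 from 96465273 to 96469199, in a build that the tables do not name. Its sdAb#07.81 mean was 5649 and its 48 h mean 748 as deposited, or 772 after scaling. The ratio of the means was 7.32, or 2.87 on the log2 scale, which ranked 1 among the 13629 genes. *Txnip* made up 0.0316% of the summed means in the sdAb#07.81 table and 0.00419% in the 48 h table. A high mean for a table that holds 24 h libraries, and a low one for a table that does not, places the *Txnip* transcript mainly in the sdAb#07.81 24 h group.

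The same reading can be put in numbers, because both tables contain the sdAb#07.81 48 h libraries. Whatever the level in that group, the scaled means fix the difference between the sdAb#07.81 24 h and sdAb-Con 48 h groups. For *Txnip* this difference was 9755 normalized counts. The sdAb#07.81 48 h group could not exceed 1544, which is its level if sdAb-Con 48 h were 0. The sdAb#07.81 24 h group then lay between 9755 and 11299. *Txnip* was therefore at least 6.32-fold higher at 24 h than at 48 h of sdAb#07.81, and at least 7.32-fold higher at 24 h than in sdAb-Con at 48 h. These limits are arithmetic, assume one level for the shared libraries in both tables, and carry no replicate error.

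**Figure D1:**
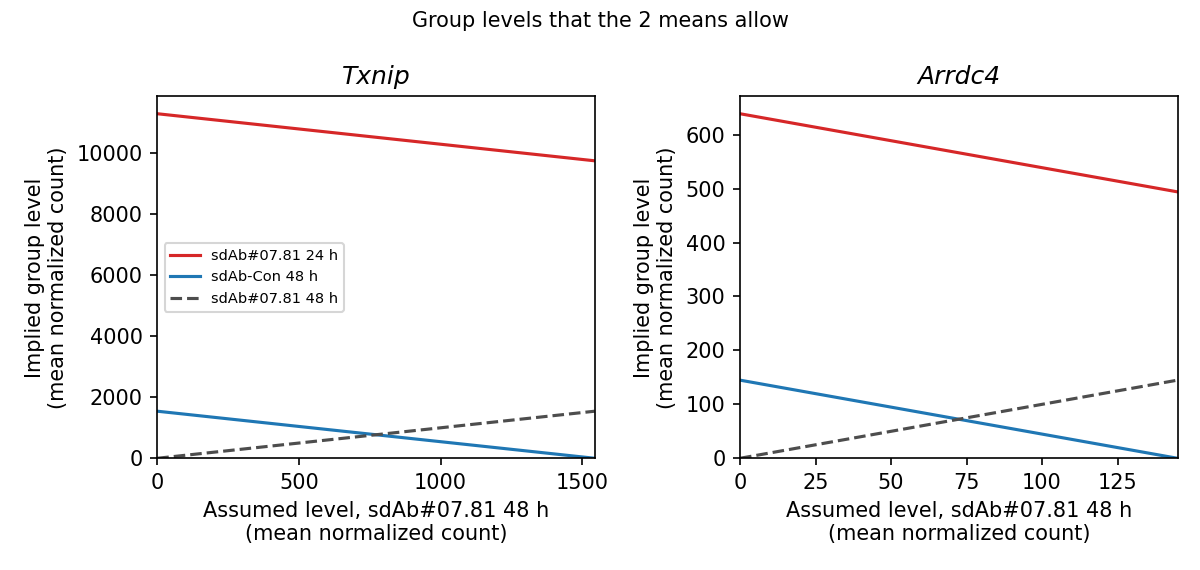
Levels that the pooled means allow for each group (vertical axis, mean normalized count) at each assumed level of the sdAb#07.81 48 h group (horizontal axis, same unit), for *Txnip* and *Arrdc4*. The sdAb#07.81 24 h line stays between 9755 and 11299 for *Txnip* and between 494 and 639 for *Arrdc4*, above both 48 h groups throughout, while the 48 h groups cross and cannot be ordered.

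How the 48 h total of *Txnip* divided between sdAb#07.81 and sdAb-Con cannot be had from the means. The sdAb#07.81 24 h and sdAb-Con 48 h groups differ in both time and antibody, and the sdAb#07.81 48 h group links them. Of the 9755 normalized counts between them, at least 8211 lay between 24 h and 48 h of sdAb#07.81. The antibodies differed at 48 h by at most 1544 normalized counts, in either direction. The series holds no sdAb-Con group at 24 h. Time in culture and sdAb#07.81 therefore cannot be told apart as sources of the 24 h level.

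*Arrdc4* (ENSMUSG00000042659), which shares with TXNIP the lowering of glucose uptake, is listed on chromosome 7 from 68386743 to 68398989. Its sdAb#07.81 mean was 319 and its 48 h mean 70.2 as deposited, or 72.4 after scaling. With a ratio of 4.41 it ranked 3 among the 13629 genes. The sdAb#07.81 24 h group exceeded sdAb-Con 48 h by 494 normalized counts and lay between 494 and 639, while the sdAb#07.81 48 h group lay at or below 145. *Arrdc4* was thus at least 3.41-fold higher at 24 h than at 48 h of sdAb#07.81, and at least 4.41-fold higher at 24 h than in sdAb-Con at 48 h.

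At a ratio of at least 2, 2 of the 7 members had a higher sdAb#07.81 mean, against 135 of all genes kept, or 0.991%. A ratio at least 2-fold lower was reached by none of the members and by 23 of all genes, or 0.169%. With a minimum mean of 100, 10112 genes entered, of which 40 were at least 2-fold higher and 10 at least 2-fold lower, and *Arrdc4* fell under the minimum. The members were chosen with these values known, so the counts describe them and support nothing further.

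**Figure D2:**
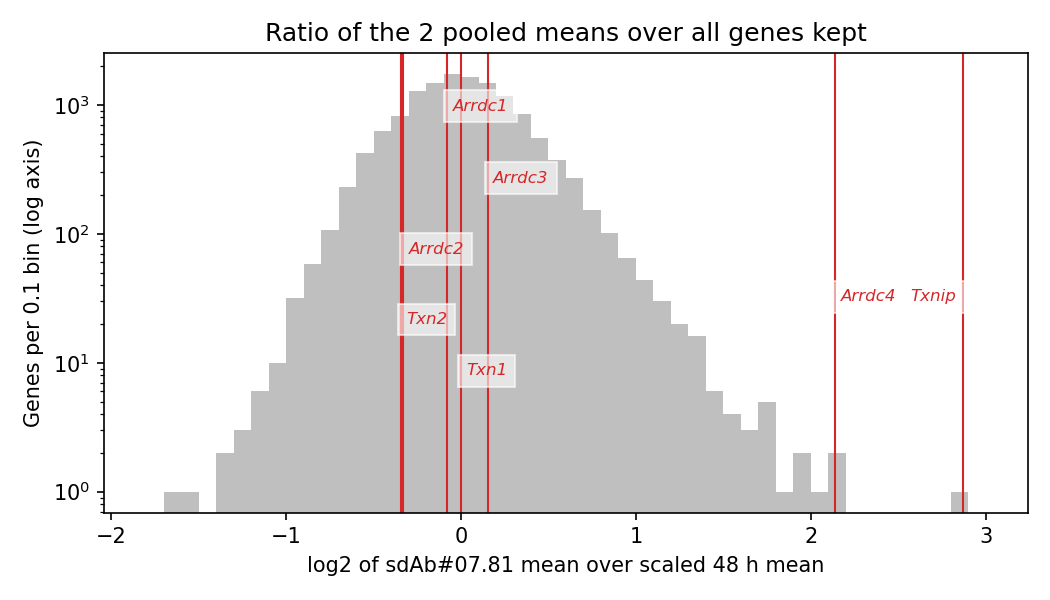
Histogram of the log2 ratio of the sdAb#07.81 mean to the scaled 48 h mean (horizontal axis) over 13629 genes, with genes per bin on a log axis. Vertical lines mark the members: *Txnip* at 2.87 and *Arrdc4* at 2.14 lie in the upper tail, and the other members between -0.35 and 0.15 lie within the bulk.

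The 5 remaining members had ratios between 0.787 and 1.11, and for these the means allow no order between the sdAb#07.81 24 h and 48 h groups. *Arrdc3*, an alpha-arrestin known for promoting degradation of adrenergic receptors and integrins, had an sdAb#07.81 mean of 597 and a scaled 48 h mean of 536. Its log2 ratio of 0.15 lay within the middle 50% of all genes, which spanned -0.21 to 0.22. *Arrdc1*, which takes part in budding of vesicles from the plasma membrane, had means of 671 and 708 and a log2 ratio of -0.08.

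*Arrdc2*, a less studied alpha-arrestin, had means of 172 and 217, a log2 ratio of -0.33. Its level in sdAb-Con at 48 h was at least 1.26-fold that in sdAb#07.81 at 24 h. This direction was opposite to that of *Arrdc4* and *Txnip* and lay within the range of -0.54 to 0.61 that held the middle 90% of genes.

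*Txn1*, the thioredoxin that TXNIP binds, had an sdAb#07.81 mean of 3177 and a scaled 48 h mean of 3182. The log2 ratio was -0.002 after scaling and 0.04 without it, so its sign depended on the scaling. *Txn2*, the mitochondrial form, had means of 840 and 1067 and a log2 ratio of -0.35, the lowest of the members. Its level in sdAb-Con at 48 h was at least 1.27-fold that in sdAb#07.81 at 24 h, a difference of 454 normalized counts.

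**Figure D3:**
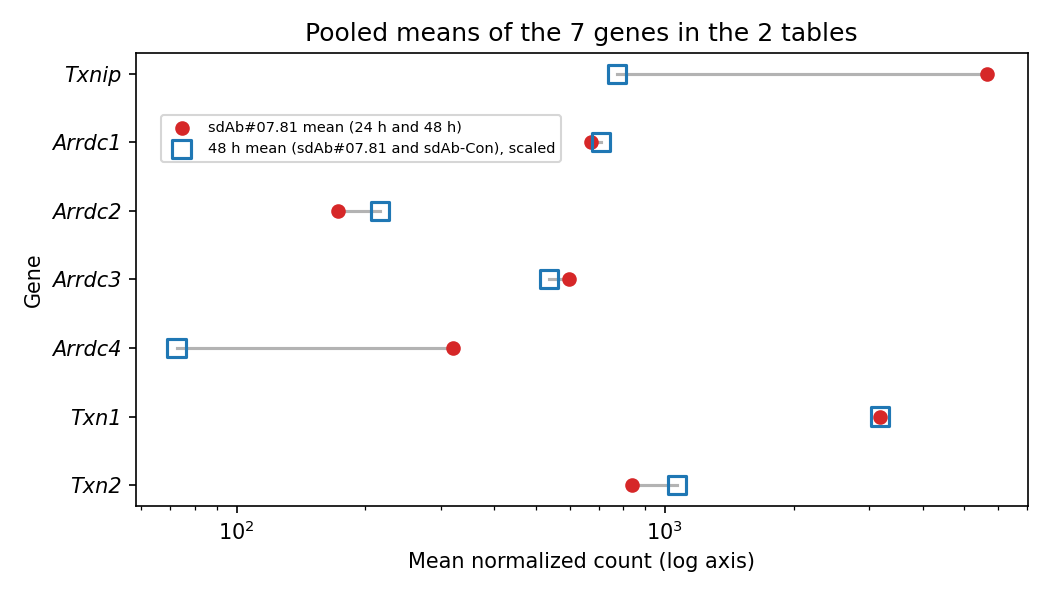
Mean normalized count (horizontal log axis) of the 7 genes, with the sdAb#07.81 mean as filled circles and the scaled 48 h mean as open squares. The marks lie far apart for *Txnip* (5649 against 772) and *Arrdc4* (319 against 72.4) and close together for the other 5 genes; no error bars are drawn because the tables hold no values per library.

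Per kilobase of the longest coding transcript, the order of the alpha-arrestins differed between the tables. In the sdAb#07.81 mean, *Txnip* stood at 1998 counts per kilobase, followed by *Arrdc1* at 403, *Arrdc3* at 146, *Arrdc4* at 81.8 and *Arrdc2* at 73.1. In the 48 h mean as deposited, *Arrdc1* led with 412, ahead of *Txnip* with 265, *Arrdc3* with 127, *Arrdc2* with 89.1 and *Arrdc4* with 18.0. *Txnip* and *Arrdc4* each lost one place, and neighbours in these orders were not compared with the spread between replicates. *Txn1* stood above all of them, at 3023 and 2933 counts per kilobase. Its level per kilobase was 1.51 times that of *Txnip* in the sdAb#07.81 mean and 11.1 times that of *Txnip* in the 48 h mean. In the 48 h mean, *Txn1* was at 5.81 times the level of *Txn2* per kilobase.

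The other genes of the thioredoxin and glutaredoxin systems, 16 enzymes and redox proteins, had a median log2 ratio of -0.19, and 14 of them were below 1 in ratio with every scaling used. Of all genes kept, 6814 of 13629 were below 1 with the median scaling, which fixes this share by setting the median ratio to 1. The share of all genes under the other scalings was not counted. None of the 16 reached a 2-fold difference, which few genes did (0.991% higher and 0.169% lower). *Txnrd1*, the cytosolic reductase that recycles TXN1, had means of 6337 and 7947 and a log2 ratio of -0.33. *Txnrd2*, the mitochondrial reductase that recycles TXN2, went the other way with means of 246 and 175 and a log2 ratio of 0.49. The peroxiredoxins, which reduce peroxides, most of them with electrons from thioredoxin, ranged from -0.34 for *Prdx6* to 0.07 for *Prdx1*.

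Of 10 glucose-sensing and glucose uptake genes, 8 were kept, with a median log2 ratio of -0.12 and no 2-fold difference. *Mlxip*, which encodes MondoA, had means of 1086 and 994, while *Mlxipl*, which encodes ChREBP, fell under the minimum with means of 2.26 and 4.35. *Mlx* had means of 427 and 468. *Slc2a1*, the glucose transporter GLUT1 that TXNIP and ARRDC4 act on, had means of 1433 and 1675, a log2 ratio of -0.23. *Ddit4*, a stress-induced inhibitor of mTORC1, had the lowest ratio of the 8 genes kept, with means of 2202 and 3560 and a log2 ratio of -0.69.

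Of 10 other arrestins and NEDD4-family ligases, 9 were kept, with a median log2 ratio of 0.06, a range of -0.16 to 0.23 and no 2-fold difference. *Nedd4* was the most abundant of these genes, with means of 29281 and 30470. *Itch*, a ligase that ubiquitinates TXNIP, had means of 2046 and 1841, and *Arrdc5* was not compared because the sdAb#07.81 table does not list it.

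Among the 10112 genes with a mean of at least 100 in both tables, the 5 whose log2 ratio lay nearest to that of *Txnip* were *Sfpq* at 1.85, *Mmp3* at 1.76, *Neat1* at 1.70, *S100a4* at 1.69 and *Dhx9* at 1.69. *Arrdc4* is not among these because its 48 h mean was under 100. The nearest of them, *Sfpq*, was 1.02 log2 units below *Txnip*. Likeness here rests on 1 ratio of 2 means.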

How the data were processed

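The processing notes of the submitters name cutadapt 1.9.1, HISAT2 2.0.1 and HTSeq 0.6.1. They name the human build GRCh38.p14, whereas the identifiers in the tables are mouse, and the tables name no build, so gene coordinates are given as listed there. The signal used is the mean normalized count that the authors deposited for each gene, pooled over 4 libraries. Read totals per library were not used here, and the summed means are of counts already divided by size factors. One table names a 48 h group by another abbreviation. It was taken as sdAb-Con, the only other 48 h group in the labels. The 6 remaining value columns of each table hold the authors' own fold changes, standard errors, test statistics and p-values and were not used by choice, so the values here carry no error or test.

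Genes with a mean of at least 10 in both tables were kept. The 48 h means were scaled by the median ratio of these genes (0.05 on the log2 scale). Group limits were computed from the scaled means with Python 3.11.15, numpy 2.4.6 and pandas 2.3.3. The estimate of the scaling was tested on simulated data. The limits were only checked as arithmetic on exact simulated means, where they must hold. They were not tested with an error of scaling or with spread between replicates. Transcript lengths came from GENCODE M21, matched by gene identifier for 85.8% of kept genes. Promoters came from RefSeq and matched all 7 members. The members and lists were chosen with earlier results of these data known. Named genes were the 7 members, genes of the fixed lists and the 5 genes nearest to *Txnip*. A test on counts per library had been planned and could not be made from pooled means.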

Additional observations from a re-analysis of the deposited data

How the results depend on the processing

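The scaling between the tables, 0.05 on the log2 scale, was 0.0024 from summed means, 0 without scaling and 0.055 from genes with a mean of at least 100. In this order, the log2 ratio of *Txnip* was 2.91, 2.92 and 2.86 instead of 2.87, and that of *Arrdc4* was 2.18, 2.19 and 2.13 instead of 2.14. The lower limit for *Txnip* at 24 h over 48 h of sdAb#07.81 ranged from 6.27-fold to 6.55-fold, and that for *Arrdc4* from 3.38-fold to 3.55-fold. At a mean of at least 100, 40 genes were at least 2-fold higher and 10 at least 2-fold lower, a setting that changes both the genes counted and the scaling, and the cause of the lower counts was not tested. The other settings gave 156 and 159 higher and 18 lower genes, against 135 and 23. The sign of *Txn1* changed with the scaling. The remaining members kept their sign under all 3 alternatives. The planned count tests, their normalization, the unfiltered fit and the omission of single libraries were not run, since each needs the counts of every library. No paired analysis was possible because only pooled means were usable.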
